A study of Mus musculus with 3 samples.

Results

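The 8 genes described here are immediate early factors of T cell activation and corepressors of the Egr factors. The factors are the orphan nuclear receptors Nr4a1, Nr4a2 and Nr4a3 and the zinc finger factors Egr1, Egr2 and Egr3. The corepressors are Nab1 and Nab2, the proteins that bind Egr factors and repress their targets. All were measured after 2 days of activation. The genes were found by name, as every probe set whose only gene symbol was a listed member, which gave 19 probe sets among 45037 and 8 genes among 18193 named ones. RNA came from CD4+CD25- T cells of spleen and lymph node, taken from female mice of 6-8 weeks on a BALB/c background that lacked both Stat6 and T-bet (gene Tbx21) in all 3 conditions. The cells were activated for 2 days with plate-bound anti-CD3 (5 µg/ml) and anti-CD28 (1 µg/ml). Cytokines differed: IL-6 (10 ng/ml) with TGFβ (5 ng/ml), IL-6 (10 ng/ml) with IL-23 (10 ng/ml), or TGFβ alone (5 ng/ml). The study set the IL-6/TGFβ culture against TGFβ alone, for genes of Th17 polarization, and then against the IL-6/IL-23 culture, to narrow these to genes that regulate IL-10. The ratio of IL-6/IL-23 to TGFβ was added here. Each condition has 1 array, so no error between cultures could be had and nothing below carries a p-value. Both lymphocyte programmes that need Stat6 (Th2) or T-bet (Th1) are impaired in these mice, which limits the cells as a model of normal CD4 T cells.

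Nr4a and Egr genes are switched on within minutes to hours of T cell receptor engagement. Calcium and calcineurin signals act on Nr4a genes through NFAT, MEF2 and CREB family factors, and ERK signals act on Egr genes through SRF and its Elk partners. In mouse T cells the Nr4a receptors are known for restraining effector functions and for sustaining regulatory T cells, and Egr2 and Egr3 for limiting activation and for anergy, a state of lasting unresponsiveness. Egr2 has also been tied in mice to lower IL-17 through Batf and to IL-10 in Lag3-expressing CD4 cells. Nab2 is itself induced by Egr factors, which closes a feedback loop.

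The promoters of the Nr4a receptors are shown because all 3 hold the same short motif several times, while the genes differed in their pattern over the cultures. The windows run from 250 bases before to 50 after the start in RefSeq (GRCm38.p6), written 5′ to 3′ on the gene's strand. Capitals mark TGACG on either strand (CGTCA is its complement), the core of sites bound by CREB, CREM and ATF factors, and in Egr2 also the CArG box, the site of SRF. The windows lie at chr15:101266596-101266895 (plus strand) for Nr4a1, chr2:57123954-57124253 (minus strand) for Nr4a2, chr4:48045055-48045354 (plus strand) for Nr4a3 and chr10:67537680-67537979 (plus strand) for Egr2, the furthest downstream of its 5 windows.
Nr4a1: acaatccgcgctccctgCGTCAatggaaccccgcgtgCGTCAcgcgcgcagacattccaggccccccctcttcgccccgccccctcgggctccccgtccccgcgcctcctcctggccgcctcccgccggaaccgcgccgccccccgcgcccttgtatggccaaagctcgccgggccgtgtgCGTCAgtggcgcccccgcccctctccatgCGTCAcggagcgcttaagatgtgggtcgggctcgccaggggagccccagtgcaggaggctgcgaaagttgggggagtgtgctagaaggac
Nr4a2: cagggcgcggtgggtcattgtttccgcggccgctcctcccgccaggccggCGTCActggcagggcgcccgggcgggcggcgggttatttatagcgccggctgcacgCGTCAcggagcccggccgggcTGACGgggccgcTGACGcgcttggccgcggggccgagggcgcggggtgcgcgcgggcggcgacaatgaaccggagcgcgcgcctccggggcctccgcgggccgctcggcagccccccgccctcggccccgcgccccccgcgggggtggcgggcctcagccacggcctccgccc
Nr4a3: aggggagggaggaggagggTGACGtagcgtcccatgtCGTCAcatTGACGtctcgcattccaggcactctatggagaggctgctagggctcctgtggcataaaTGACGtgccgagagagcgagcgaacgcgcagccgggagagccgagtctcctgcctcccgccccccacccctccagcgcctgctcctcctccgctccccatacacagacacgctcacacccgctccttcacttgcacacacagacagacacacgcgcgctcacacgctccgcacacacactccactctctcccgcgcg
Egr2: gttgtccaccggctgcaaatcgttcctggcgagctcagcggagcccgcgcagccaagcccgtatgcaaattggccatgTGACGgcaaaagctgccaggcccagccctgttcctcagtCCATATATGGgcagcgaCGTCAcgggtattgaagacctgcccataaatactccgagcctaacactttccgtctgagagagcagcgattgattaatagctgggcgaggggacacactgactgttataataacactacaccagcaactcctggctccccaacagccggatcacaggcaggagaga

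Each of the 3 Nr4a windows held 4 copies of TGACG. Among all 32851 promoter windows of the table, 20.8% held at least 1 copy and 0.231% at least 4. Their guanine and cytosine content was 72.3% in Nr4a1, 81.7% in Nr4a2 and 64.7% in Nr4a3. Among windows within 2 points of that content, at least 4 copies stood in 0.433%, 0.627% and 0.738%. In Nr4a1 the copies began at positions -233, -213, -69 and -40 from the start, in Nr4a2 at -200, -144, -123 and -111, and in Nr4a3 at -231, -213, -205 and -147. The printed Egr2 window held 2 copies and 1 CArG box. At least 2 copies of TGACG stood in 5.01% of all windows and in 5.95% of those within 2 points of its guanine and cytosine content. A CArG box stood in 1.63% of all windows. The Egr2 windows that start at chr10:67535249 and chr10:67537316 held 0 copies of TGACG. Nab1 held 1 copy of TGACG and Nab2 held 0. The whole site TGACGTCA, which contains TGACG on both strands, was in no Nr4a window and in 1.79% of all windows. AAGGTCA, the core of the site that Nr4a monomers bind, was found in none of the windows of these 6 genes. GCGTGGG, a core of Egr sites, was in 5.04% of all windows and at least 2 copies in 0.393%, with 2 copies in Nab1 and 1 in Nab2. GCGGGGG, another Egr core, was in 10.8% of all windows, at least 2 copies in 2.10% and at least 3 in 0.365%. It had 3 copies in Nr4a2, 3 in Nab1, 2 in Nr4a1, 1 in Nab2 and 1 in an Egr2 window not printed here. The NFAT core GGAAAA, in 23.4% of all windows, was in no window of Nr4a1, Nr4a2 or Nr4a3. Shares of motifs other than TGACG were not matched for guanine and cytosine content. Motifs were searched on both strands, and a match describes letters and not bound sites.

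Levels are quantile-normalized intensities in arbitrary units, which give all arrays the same distribution, and ratios are on the log2 scale. Intensities were compared between arrays for 1 probe set at a time, apart from levels summed over cell type markers. A floor was set at 123 units, below which lay 95% of the values of 31 probe sets for genes of unrelated tissues. It replaced all smaller values in ratios, whereas levels and summed levels are given without it. Calls of higher or lower needed a 2-fold ratio and a brighter array exceeding that floor. Where the dimmer array lay below it, the fold is given as "at least". A gene was represented by its brightest probe set, and the brightest probe sets of all 8 genes were above the floor on every array. The spread of ratios between probe sets of the same gene, as an SD for 1 probe set, was 0.20 for IL-6/TGFβ relative to TGFβ, 0.27 for IL-6/TGFβ relative to IL-6/IL-23 and 0.28 for IL-6/IL-23 relative to TGFβ (2602 genes). It leaves out differences between cultures and arrays.

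The arrays differed in brightness as deposited, with medians of 28.1 for IL-6/TGFβ, 17.8 for IL-6/IL-23 and 35.8 for TGFβ, so a ratio near 2-fold can pass or miss with the scaling. Of the genes at least 2-fold apart for IL-6/TGFβ relative to TGFβ, 39.4% were lower, against 52.8% with median scaling and 84.5% as deposited. In the IL-6/TGFβ culture relative to IL-6/IL-23 the shares were 45.2%, 64.8% and 11.6%, and for IL-6/IL-23 relative to TGFβ 49.1%, 42.8% and 97.6%. The median ratio of all measured genes was 0.01, -0.03 and 0.05 in these comparisons, -0.08, -0.23 and 0.14 with median scaling, and -0.43, 0.40 and -0.84 as deposited. All 8 T cell identity genes with a probe set were above the floor on every array, with a summed level of 23467 with IL-6/TGFβ, 30474 with IL-6/IL-23 and 22857 with TGFβ. Cd4 read 716 with IL-6/TGFβ, 904 with IL-6/IL-23 and 1333 with TGFβ. Of 5 B cell markers 0 were above the floor on any array, with sums of 178 with IL-6/TGFβ, 135 with IL-6/IL-23 and 179 with TGFβ. Of 7 myeloid markers, Mpeg1 was above it with TGFβ and the other 6 nowhere, with sums of 188 with IL-6/TGFβ, 138 with IL-6/IL-23 and 287 with TGFβ. Of 5 markers of CD8 T cells and NK cells, 0 were above the floor with IL-6/TGFβ, 1 with IL-6/IL-23 and 2 with TGFβ (Cd8a and Cd8b1), with sums of 245 with IL-6/TGFβ, 387 with IL-6/IL-23 and 413 with TGFβ. Their part in the results below was not tested. In a bulk sample, fewer cells of a type and less RNA per cell cannot be told apart. Probe sets of the deleted genes were read too. Stat6 read 223 with IL-6/TGFβ, 191 with IL-6/IL-23 and 259 with TGFβ. Tbx21 read 118 with IL-6/TGFβ, 205 with IL-6/IL-23 and 190 with TGFβ, the first of these being under the floor. Where the deletions lie relative to these probe sets is not stated in the labels.

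The 3 Nr4a receptors had different patterns over the cultures. Nr4a3 (Nor1) read 522 with IL-6/TGFβ, 943 with IL-6/IL-23 and 3556 with TGFβ alone. It was high in the culture with TGFβ as its only added cytokine and low in both cultures that received IL-6. Its ratio was -2.77 for IL-6/TGFβ relative to TGFβ and -1.92 for IL-6/IL-23 relative to TGFβ. Between the IL-6 cultures the ratio was -0.85 for IL-6/TGFβ relative to IL-6/IL-23, under 2-fold but beyond the probe-set spread. With median scaling this ratio was -1.07 and as deposited -0.42. The value rests on probe set 1438796_at, since the further probe sets of Nr4a3, 1421079_at and 1421080_at, were below the floor on all 3 arrays.

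Nr4a1 (Nur77), whose level is widely used as a readout of T cell receptor signal strength, set the IL-6/TGFβ culture apart. It read 1451 with IL-6/TGFβ, 2929 with IL-6/IL-23 and 3094 with TGFβ. The last 2 arrays differed by less than the probe-set spread, at -0.08 for IL-6/IL-23 relative to TGFβ and 0.07 with median scaling. As deposited this ratio was -0.94, beside a median of -0.84 over all measured genes. The IL-6/TGFβ array stood below both of those arrays. The ratio of IL-6/TGFβ was -1.09 over TGFβ and -1.01 over IL-6/IL-23. The one over IL-6/IL-23 was just past 2-fold, and as deposited it was -0.59. Nr4a1 has 1 probe set, 1416505_at.

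Nr4a2 (Nurr1) was high in the IL-6/IL-23 culture, which both lacked TGFβ and alone received IL-23. Its brightest probe set, 1455034_at, read 254 with IL-6/TGFβ, 848 with IL-6/IL-23 and 228 with TGFβ. Adding IL-6 to TGFβ made a difference of 0.16, within the probe-set spread. As deposited it was -0.30, beside a median of -0.43 over all measured genes, and so 0.13 relative to that median. The ratio was -1.74 for IL-6/TGFβ relative to IL-6/IL-23 and 1.89 for IL-6/IL-23 relative to TGFβ. Nr4a2 has 6 probe sets, of which 4 were above the floor on at least 1 array. All 4 were brightest with IL-6/IL-23, and the further 3 read 556, 446 and 413 there. On the other arrays those 3 lay near the floor, at 116, 114 and 125 with IL-6/TGFβ and at 138, 119 and 102 with TGFβ. Relative to the IL-6/IL-23 culture, with IL-6/TGFβ they gave at least 4.53-fold lower, at least 3.64-fold lower and -1.72. The remaining probe sets of Nr4a2, 1433422_at and 1433423_at, were below the floor throughout.

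**Figure D1:**
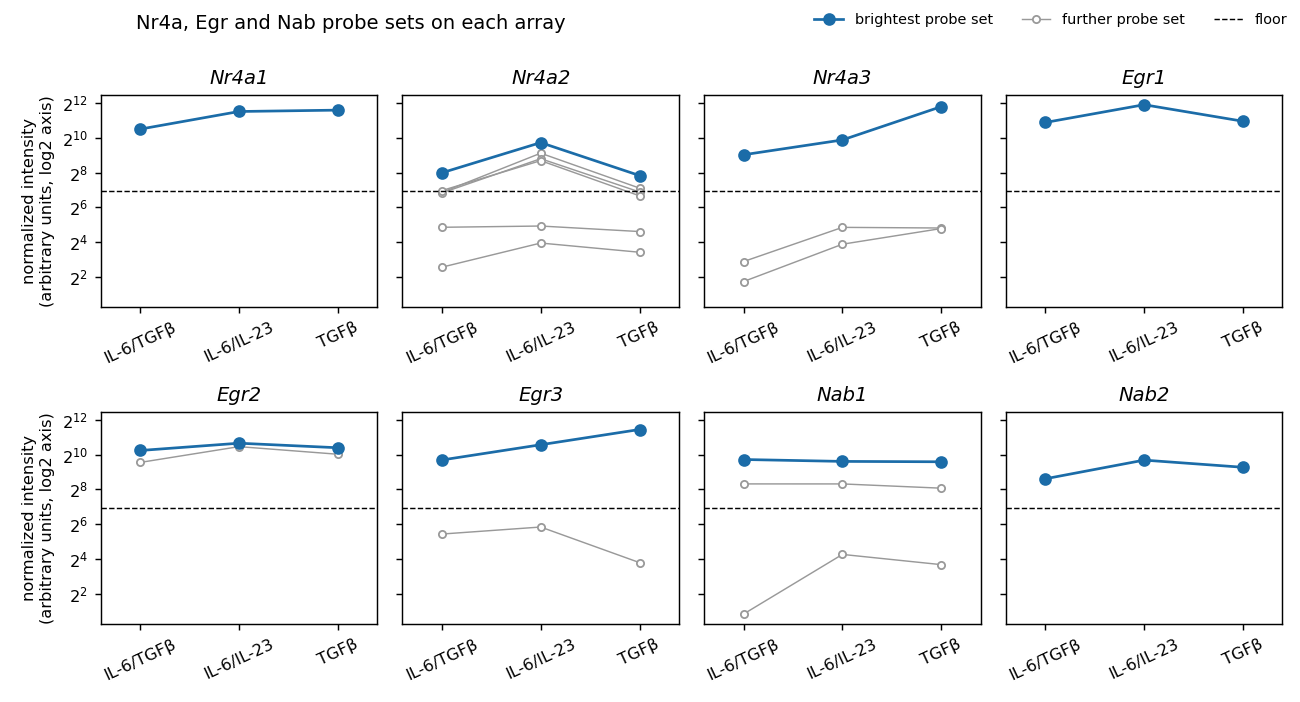
Normalized intensity (arbitrary units, log2 axis) of every probe set of the 8 genes on the IL-6/TGFβ, IL-6/IL-23 and TGFβ arrays, 1 array each, with the brightest probe set of a gene filled, further ones open, lines joining values of 1 probe set and the floor of 123 dashed. Nr4a3 and Egr3 are highest with TGFβ, Nr4a2 and Egr1 with IL-6/IL-23, and Nab1 is nearly level.

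The Egr factors also split. Egr3, which with Egr2 restrains T cell activation, read 824 with IL-6/TGFβ, 1513 with IL-6/IL-23 and 2778 with TGFβ. This is the order of Nr4a3, with TGFβ alone highest and IL-6/TGFβ lowest. Its ratios were -1.75 for IL-6/TGFβ relative to TGFβ, -0.88 for IL-6/TGFβ relative to IL-6/IL-23 and -0.88 for IL-6/IL-23 relative to TGFβ, so only the first passed 2-fold. As deposited the last was -1.76, and with median scaling the middle one was -1.10. These values rest on probe set 1436329_at, and the further one, 1421486_at, was below the floor on all 3 arrays, at 43.1 with IL-6/TGFβ, 57.0 with IL-6/IL-23 and 13.8 with TGFβ.

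Egr1, a factor that binds the Il2 promoter among many others, read 1891 with IL-6/TGFβ, 3840 with IL-6/IL-23 and 1986 with TGFβ. The IL-6/IL-23 array was high, and the other arrays differed by less than the probe-set spread (-0.07). As deposited they differed by -0.54, beside a median of -0.43 over all measured genes. The ratio was -1.02 for IL-6/TGFβ relative to IL-6/IL-23, just past 2-fold, and 0.95 for IL-6/IL-23 relative to TGFβ, just short of it. As deposited these were -0.64 and 0.10. Egr1 has 1 probe set, 1417065_at.

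Egr2 varied less than its relatives. Probe set 1427683_at read 1203 with IL-6/TGFβ, 1609 with IL-6/IL-23 and 1343 with TGFβ, and 1427682_a_at read 748 with IL-6/TGFβ, 1404 with IL-6/IL-23 and 1037 with TGFβ. Both were lowest with IL-6/TGFβ and highest with IL-6/IL-23. With IL-6/TGFβ relative to IL-6/IL-23 they gave -0.42 and -0.91, and neither reached 2-fold in any comparison. As deposited, 1427683_at gave -0.01 for that ratio and -0.63 for IL-6/IL-23 relative to TGFβ, against 0.26 after normalization, so its highest array was then TGFβ.

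The corepressors differed from each other. Nab2 read 390 with IL-6/TGFβ, 820 with IL-6/IL-23 and 617 with TGFβ, in the same order of arrays as Egr2. Its ratio was -1.07 for IL-6/TGFβ relative to IL-6/IL-23, -0.66 over TGFβ, and 0.41 for IL-6/IL-23 relative to TGFβ, and as deposited these were -0.62, -1.11 and -0.48. Nab1 read 841 with IL-6/TGFβ, 779 with IL-6/IL-23 and 768 with TGFβ, and all 3 of its ratios lay within the probe-set spread, between 0.02 and 0.13. As deposited they were -0.32 for IL-6/TGFβ relative to TGFβ, 0.54 relative to IL-6/IL-23 and -0.86 for IL-6/IL-23 relative to TGFβ. Taken relative to the median of all measured genes, these as-deposited ratios were 0.11, 0.15 and -0.02. A further probe set of Nab1, 1448781_at, read 318 with IL-6/TGFβ, 318 with IL-6/IL-23 and 268 with TGFβ, and 1438819_at was below the floor on all arrays.

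In the IL-6/TGFβ culture relative to TGFβ, 3 of the 8 genes were at least 2-fold lower (Nr4a1, Nr4a3 and Egr3), beside 1.53% of the 7668 genes readable in this comparison. None was at least 2-fold higher, beside 2.35% of all. The median ratio of the 8 genes was -0.41, against 0.01 over all genes measured on both arrays. Among those 7046 genes Nr4a3 had the lowest ratio, and Egr3 ranked 16 and Nr4a1 ranked 77 from the bottom. Genes with 1 array at the floor are not ranked, and with the floor at the 90th percentile (40.0 units) Nr4a3 ranked 6 of 9060. Nr4a2 and Nab1 stood above 0, at 0.16 and 0.13. As deposited both stood below it, at -0.30 and -0.32, where the median of all measured genes was -0.43.

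Relative to the IL-6/IL-23 culture, with IL-6/TGFβ, 4 genes were at least 2-fold lower (Nr4a1, Nr4a2, Egr1 and Nab2), beside 2.79% of 7768 readable genes, and 0 were higher, beside 3.39%. The other genes below 0 were Nr4a3, Egr3 and Egr2, and Nab1 stood at 0.11 (-0.12 with median scaling). The median was -0.94, against -0.03 over 7049 measured genes. Nr4a2 ranked 39 from the bottom, Nab2 136, Egr1 156 and Nr4a1 161. Of the 4 counted genes, 3 lay between -1.07 and -1.01, so the count moved with the scaling, to 6 with median scaling, which added Nr4a3 and Egr3, and to 1 as deposited, Nr4a2. Since these cultures differ by TGFβ and by IL-23 at once, the 2 cytokines cannot be told apart.

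With IL-6/IL-23 relative to TGFβ, the genes went both ways. These cultures differ by IL-6, IL-23 and TGFβ at once, so the cytokines cannot be told apart. Nr4a2 was at least 2-fold higher, beside 2.92% of 7749 readable genes, and Nr4a3 at least 2-fold lower, beside 2.81%. Nr4a2 ranked 39 from the top of 7020 measured genes and Nr4a3 ranked 25 from the bottom. The median of the 8 genes was 0.14, against 0.05 over all. As deposited, Nr4a2 was at 0.97 and 0 genes were at least 2-fold higher. The 3 comparisons share their arrays, so their ratios are not independent of each other.

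**Figure D2:**
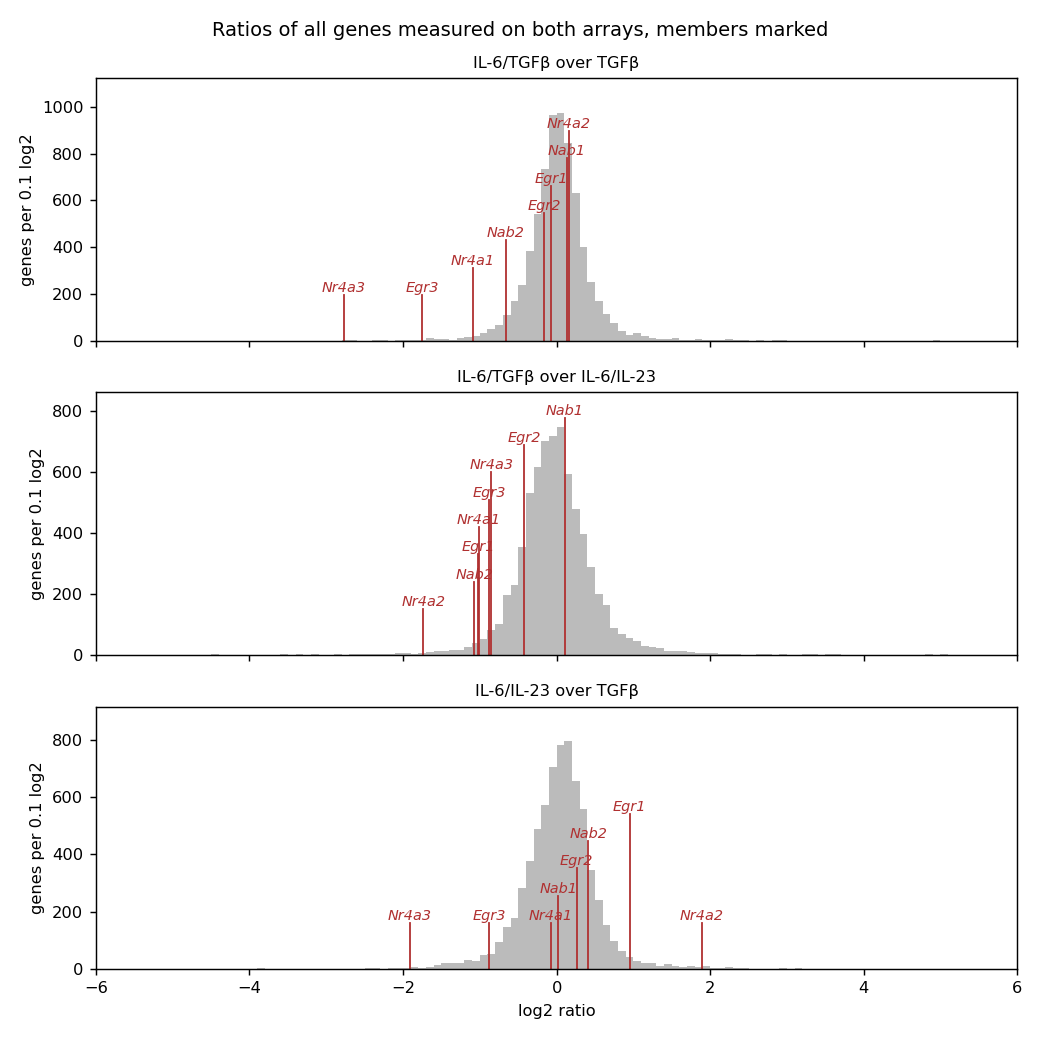
Number of genes (per 0.1 log2 units) at each log2 ratio, for genes measured above the floor on both arrays of a comparison, with the 8 genes marked by lines whose height has no meaning. Nr4a3 at -2.77 has the lowest ratio for IL-6/TGFβ relative to TGFβ, and 7 of the 8 genes lie below 0 for IL-6/TGFβ relative to IL-6/IL-23.

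Because a scale factor moves every gene of an array alike, each ratio was also taken relative to the median of all measured genes. Under quantile, median and no scaling, these relative ratios differed by at most 0.0807 for any of the 8 genes. In the IL-6/TGFβ culture relative to IL-6/IL-23 as deposited, they were -1.67 for Nr4a2, -1.04 for Egr1, -1.02 for Nab2, -0.99 for Nr4a1, -0.84 for Egr3, -0.81 for Nr4a3, -0.40 for Egr2 and 0.15 for Nab1. After quantile normalization the order differed by 1 swap, with Nab2 below Egr1. Relative to TGFβ alone, with IL-6/TGFβ as deposited, Nr4a3 stood at -2.78, Egr3 at -1.78 and Nr4a1 at -1.10 relative to the median.

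**Figure D3:**
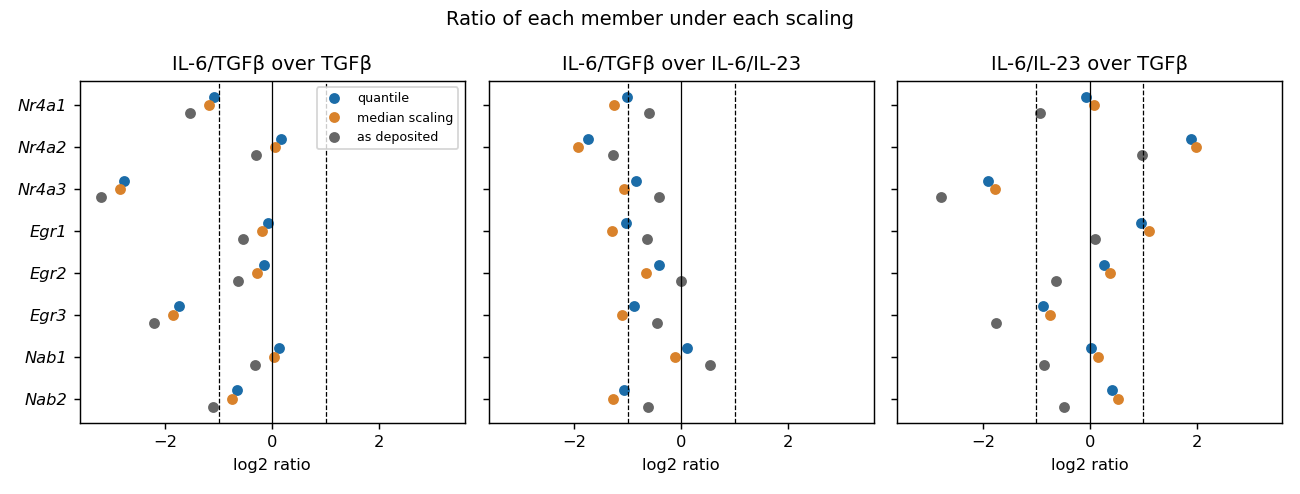
Log2 ratio of each gene's brightest probe set in each comparison after quantile normalization, after median scaling and as deposited, with dashed lines at 2-fold. With IL-6/TGFβ relative to IL-6/IL-23, Nr4a1, Egr1, Nab2, Nr4a3 and Egr3 sit near the 2-fold line and cross it with the scaling, and Nr4a2 stays past it.

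Ratios of relatives were unequal within the same arrays. A scale factor per array cancels in such a difference, so it is by construction the same with median scaling and as deposited. In the IL-6/IL-23 culture relative to TGFβ the ratio of Nr4a2 exceeded that of Nr4a3 by 3.81 log2 units, and by 3.76 as deposited. The ratio of Egr1 exceeded that of Egr3 by 1.83, and by 1.86 as deposited. Relative to TGFβ alone, with IL-6/TGFβ, Nr4a2 exceeded Nr4a3 by 2.92 and Egr1 exceeded Egr3 by 1.68. With IL-6/TGFβ relative to IL-6/IL-23 the differences were -0.89 between Nr4a2 and Nr4a3 and -0.15 between Egr1 and Egr3, smaller than in the other comparisons. For other pairs this was not so, with -0.60 between Egr1 and Egr2, against 0.09 for IL-6/TGFβ relative to TGFβ. Nab2 lay 1.18 below Nab1 in that comparison (a difference of -1.18), against -0.79 for IL-6/TGFβ relative to TGFβ.

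Genes with the most similar profile were sought among 6867 other genes above the floor on all 3 arrays, by Euclidean distance of log2 values centred on each gene's mean over the 3 arrays. With so few arrays, many genes lie close by. Nearest to Nr4a2 were Gstt2 (distance 0.0224, at 415 with IL-6/TGFβ, 1360 with IL-6/IL-23 and 373 with TGFβ), the prostaglandin E2 receptor Ptger2 (0.0792) and the phosphatase Ptpn4 (0.0991). Nearest to Nr4a1 were Jarid2 (0.0432), a chromatin factor, the lipid phosphatase Inpp4b (0.0879) and Ppip5k2 (0.0987). For Egr1 they were Ppif (0.0388), a mitochondrial cyclophilin, Exoc6 (0.0435) and the costimulatory receptor Icos (0.0531, at 1448 with IL-6/TGFβ, 2892 with IL-6/IL-23 and 1445 with TGFβ). For Egr3 they were Litaf (0.0713), Arhgef3 (0.115) and the sialyltransferase St8sia4 (0.180), and for Nab2 Trmt10a (0.00784), the costimulatory receptor Cd27 (0.0344) and Bend3 (0.0389). The closest to Nr4a3 was the muscle enolase Eno3, at a distance of 0.420 and levels of 293 with IL-6/TGFβ, 381 with IL-6/IL-23 and 1363 with TGFβ, followed by Mndal (0.533) and Grasp (0.580). No member was among the 3 nearest genes of another.

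Other immediate early genes did not follow a single member. Of 30 readable genes on that list, 1 was at least 2-fold higher and 1 lower for IL-6/TGFβ relative to TGFβ (median 0.10, against 0.02 over all readable genes). Over all readable genes, 2.35% were higher and 1.53% lower. The higher gene was Fosl2, an AP-1 subunit, at 2.24, although a further probe set gave 0.08, and the lower was Dusp5 (-1.70), a phosphatase that acts on ERK. In the IL-6/TGFβ culture relative to IL-6/IL-23, 2 were higher and 5 lower (median -0.23, against -0.03), beside 3.39% and 2.79% of all genes. The lower ones included Atf3 (at least 3.39-fold), Dusp6 (-1.62), an ERK phosphatase, and the AP-1 subunit Fos (-1.46). Higher were Klf10, a TGFβ-induced factor (2.01), and Jun (1.57). Relative to TGFβ alone, with IL-6/IL-23, 6 were higher and 2 lower (median 0.25, against 0.05), beside 2.92% and 2.81% of all genes. Fosl2 stood at 2.34 (0.11 in the further probe set), with Ier3 at 2.21, Fos at least 4.14-fold higher and Klf10 at -1.88. As deposited, 3 were higher and 9 lower, beside 63 higher and 2509 lower over all genes. Dusp6 read 538 with IL-6/TGFβ, 1651 with IL-6/IL-23 and 505 with TGFβ, the order of Nr4a2, and Dusp5 read 333 with IL-6/TGFβ, 493 with IL-6/IL-23 and 1078 with TGFβ, the order of Egr3 and Nr4a3. Egr4, a further Egr factor, was below the floor on all 3 arrays.

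Genes that respond to the T cell receptor were lower in many cases when TGFβ replaced IL-23 beside IL-6. Of 17 readable genes, 10 were at least 2-fold lower and 0 higher for IL-6/TGFβ relative to IL-6/IL-23 (58.8%, with a median of -1.29 against -0.03 over all readable genes). Over all readable genes, 2.79% were lower and 3.39% higher. With median scaling 12 of the list were lower, and as deposited 7, beside 345 and 93 lower over all genes. The 10 lower genes included the chemokine genes Ccl3 (-3.56) and Ccl4 (-2.31), the growth factor gene Il2 (-3.11) and Tnfsf11, which encodes RANKL (at least 4.86-fold). With IL-6/TGFβ relative to TGFβ, 5 of 18 were lower and 0 higher (median -0.26, against 0.02), beside 1.53% and 2.35% of all genes. Tnfsf11 was at least 13.3-fold lower, with Ccl3 at -2.68, Tnfrsf9 at -1.43 and Tnfrsf18 at -1.39. Both of the last encode costimulatory receptors. With IL-6/IL-23 relative to TGFβ, 6 were higher and 1 lower (median 0.81, against 0.05), beside 2.92% and 2.81% of all genes. Il2 stood at 3.85, with the inhibitory receptor gene Lag3 at least 3.35-fold higher, the signalling inhibitor Spry1 at 1.69 and Tnfsf11 at -1.45. As deposited, 1 of the list was higher and 3 lower, beside 63 higher and 2509 lower over all genes. With median scaling 9 were higher and 1 lower, beside 279 and 209 over all genes. Il2 read 1208 with IL-6/TGFβ, 10464 with IL-6/IL-23 and 726 with TGFβ. Egr1 was also highest with IL-6/IL-23, although as deposited its ratio over TGFβ was 0.10. A link between Egr1 and Il2 was not tested. Tnfrsf18 read 1096 with IL-6/TGFβ, 2850 with IL-6/IL-23 and 2872 with TGFβ, the pattern of Nr4a1.

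Genes tied to Egr2 and Egr3 in T cells were split. Relative to the IL-6/IL-23 culture, with IL-6/TGFβ, 7 of 18 were at least 2-fold lower and 3 higher, beside 2.79% and 3.39% of all genes. The median was -0.56, against -0.03 over all readable genes. Lower were Nrn1 (at least 12.7-fold), Id3 (at least 5.09-fold) and Crtam (at least 2.89-fold), and the highest ratio was that of Il10 itself (2.08). As deposited, 3 were lower and 5 higher, beside 93 lower and 712 higher over all genes. With median scaling 8 were lower and 1 higher, beside 345 and 187 over all genes. With IL-6/TGFβ relative to TGFβ, 3 of 17 were higher and 2 lower (median 0.05, against 0.02), beside 2.35% and 1.53% of all genes. The higher ones were Il10 (at least 8.25-fold), the cytokine signalling inhibitor Socs3 (2.86) and the AP-1 factor Batf (1.60), and the lower ones Tnfrsf9 and Nrn1 (at least 2.28-fold). With IL-6/IL-23 relative to TGFβ, 8 of 18 were higher and 0 lower (median 0.76, against 0.05), beside 2.92% and 2.81% of all genes. Nrn1 stood at 2.48, Id3 at 2.29, Batf at 1.98 and Socs3 at 1.83. As deposited, the counts were 3 higher and 3 lower, beside 63 higher and 2509 lower over all genes. Nrn1 read 102 with IL-6/TGFβ, 1561 with IL-6/IL-23 and 279 with TGFβ.

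Genes tied to Nr4a factors in T cells went both ways. Relative to TGFβ alone, with IL-6/TGFβ, 4 of 17 were higher and 2 lower (median -0.03, against 0.02), beside 2.35% and 1.53% of all genes. The higher ones included Tox2 (at least 6.53-fold), the proton-sensing receptor Gpr65 (2.22) and Batf, and the lower ones were Tnfrsf18 and Foxp3 (-1.10), the factor of regulatory T cells. With IL-6/TGFβ relative to IL-6/IL-23, 2 of 16 were higher and 2 lower (median -0.43, against -0.03), beside 3.39% and 2.79% of all genes. Tox2 was at least 6.53-fold higher and the Ikaros family factor Ikzf4 stood at 1.40, and Il2 and Tnfrsf18 were lower. With IL-6/IL-23 relative to TGFβ, 5 of 16 were higher and 2 lower (median 0.12, against 0.05), beside 2.92% and 2.81% of all genes. Gpr65 stood at 2.81 and Foxp3 was at least 4.06-fold lower. As deposited, 3 were higher and 4 lower, beside 63 higher and 2509 lower over all genes. Foxp3 read 232 with IL-6/TGFβ, 22.5 with IL-6/IL-23 and 498 with TGFβ, highest where Nr4a3 was highest and below the floor with IL-6/IL-23, where Nr4a2 was highest. A link between Foxp3 and these receptors was not tested.

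Factors that act on Nr4a and Egr promoters were mostly within 2-fold. Relative to TGFβ alone, with IL-6/TGFβ, 1 of 19 readable genes was higher and 0 lower, beside 2.35% and 1.53% of all genes. The higher gene was Nfatc2, an NFAT factor, at 1.06. When IL-6/TGFβ was set relative to IL-6/IL-23, Nfatc2 was higher (1.08) and Crem was lower (-1.30), beside 3.39% and 2.79% of all genes. Both calls of Nfatc2 were lost with median scaling, where 0 of the list were higher in either comparison. As deposited, 0 were higher relative to TGFβ, and 4 were higher and 0 lower relative to IL-6/IL-23, so the call of Crem was lost. Over all genes, 91 were then higher relative to TGFβ, and 712 were higher and 93 lower relative to IL-6/IL-23. Crem, whose products bind the TGACG core shown above and can activate or repress, read 1098 with IL-6/TGFβ, 2699 with IL-6/IL-23 and 567 with TGFβ. It was the 1 listed regulator at least 2-fold apart for IL-6/IL-23 relative to TGFβ (2.25, and 2.21 in a further probe set). Over all readable genes 2.92% were higher and 2.81% lower. As deposited, 1 listed regulator was higher and 7 were lower, beside 63 higher and 2509 lower over all genes. Nr4a2 was also highest with IL-6/IL-23. Nr4a3 was highest with TGFβ, and Nr4a1 was nearly level between those arrays after normalization. The windows of all 3 held 4 copies of the core. Any link between Crem and these genes was not tested. Of the partners of Nr4a and Nab proteins, 7, 6 and 7 were readable in the comparisons as ordered above, and the chromatin remodeller Chd3 for IL-6/IL-23 relative to TGFβ (-1.23) was the sole 2-fold difference. As deposited, 5 partners were lower in that comparison, beside 2509 over all genes. Among 8 T cell identity genes, the costimulatory receptor gene Cd28 for IL-6/IL-23 relative to TGFβ (1.59) was the sole one, at 2840 with IL-6/TGFβ, 5316 with IL-6/IL-23 and 1770 with TGFβ.

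**Figure D4:**
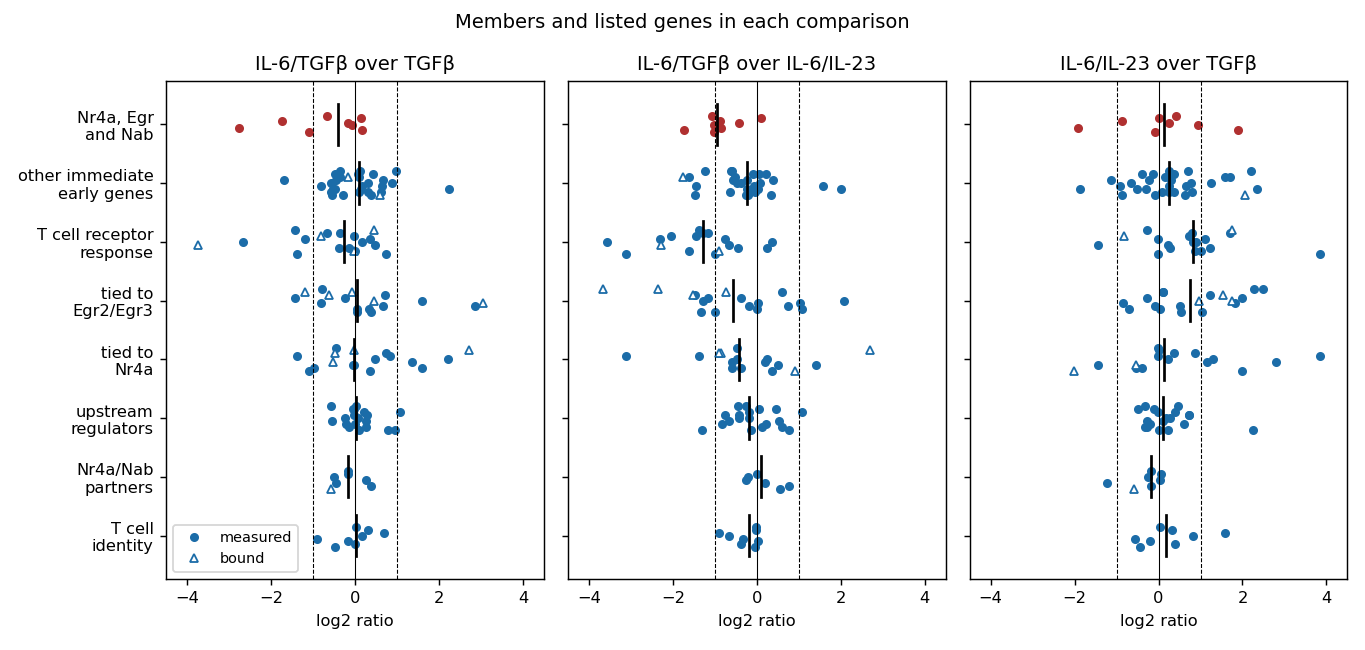
Log2 ratio of the 8 genes (top) and of the readable genes of 6 gene lists and of T cell identity genes in each comparison, with bars at the median, triangles for bounds and dashed lines at 2-fold. In the IL-6/TGFβ culture relative to IL-6/IL-23 the medians of the 8 genes (-0.94) and of T cell receptor response genes (-1.29) lie left of the other lists.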

How the data were processed

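Biotinylated cRNA was hybridised to Affymetrix arrays, per the labels' protocols, and the authors deposited a linear intensity for each probe set. How probes were summarized, scaled or background-corrected is not given in the sources used here. Of 45101 probe sets, 64 controls were left out. Array medians differed by more than 10%, so log2 intensities were quantile-normalized (Python 3.11.15, numpy 2.4.6, pandas 2.3.3). Of the rest, 34945 probe sets carried 1 symbol, 932 several and 9160 none here. Entrez identifiers of 34741 matched RefSeq and renamed 0. The floor list held 22 genes restricted to other tissues. Members and lists were chosen with earlier results of these data known. Named genes are all members, up to 4 genes past 2-fold per list and comparison, and the 3 nearest profiles of each member past 2-fold. Each condition has 1 array, so no test was run, and the number of arrays limits the precision. Alternatives were median scaling, no scaling, other floors, other ways to join probe sets, a pseudocount of 16, other fold rules and controls kept.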

Additional observations from a re-analysis of the deposited data

How the results depend on the processing

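Over 192 values of member ratios under 8 alternatives, 178 kept their side of the 2-fold rule, 9 dropped below it, 5 newly passed it and 0 turned direction after passing it. The 178 include values that could not move. These are the ratios under the other floors and, for genes with 1 probe set, under the other ways to join probe sets. The count of members lower for IL-6/TGFβ over TGFβ (3) was 1 with the mean of probe sets, where Nr4a3 stood at -0.19 and Egr3 at -0.06, since that mean takes in probe sets below the floor. For IL-6/TGFβ relative to IL-6/IL-23 the count of 4 lower was 1 as deposited and 1 at a 3-fold rule. For IL-6/IL-23 over TGFβ the count of 1 higher was 2 with median scaling and at a 1.5-fold rule, and 0 as deposited and with the mean of probe sets, and the count of 1 lower was 2 as deposited and at 1.5-fold and 0 with that mean. Over the 6 lists for IL-6/TGFβ over TGFβ, 8 genes were lower, and 20 as deposited. Over IL-6/IL-23, 8 were higher (5 with median scaling, 16 as deposited) and 21 lower (13 as deposited). For IL-6/IL-23 over TGFβ, 23 were higher (9 as deposited) and 6 lower (30 as deposited). Why these list counts moved was not tested. Over all genes, IL-6/TGFβ over TGFβ gave 180 higher and 117 lower, against 296 and 227 with the floor at the 90th percentile, 453 and 365 with a pseudocount of 16 and no floor, 91 and 496 as deposited, and 120 and 83 with the mean of probe sets. Relative to IL-6/IL-23 it gave 263 and 217, against 420 and 394, 646 and 653, 712 and 93, and 149 and 161 under the same alternatives, and 187 and 345 with median scaling. IL-6/IL-23 over TGFβ gave 226 and 218, against 389 and 351, 652 and 545, 63 and 2509, and 169 and 122. Neither other floor (40.0 and 189) could change a call of a member, since the brightest probe sets of all 8 genes exceeded both on every array. No paired analysis was possible because each condition has 1 array.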
